A study of Mus musculus with 16 samples.

Results

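Genes that steer T cells into tissues and hold them there were compared between wild-type and Batf3-deficient (ko) mouse CD8 T cells. The set held 9 genes, taken from the count table by their symbols, of 55335 gene identifiers in all. They were 3 chemokine receptors (Cxcr6, Cxcr3 and Ccr2), 3 integrin alpha chains (Itgae, Itga1 and Itga4), and 3 genes of retention and G protein signalling (Cd69, Rgs1 and Rgs2). All 9 passed the filter on low counts and were among the 15197 genes tested.

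Chemokine receptors sense gradients of secreted ligands and guide cells towards a site. Integrins, each a pair of an alpha and a beta chain, then anchor the cells to other cells or to matrix. Memory CD8 T cells that stay in a tissue typically carry CD69, which removes the exit receptor S1PR1 from the surface, and often the integrin chains CD103 (Itgae) and CD49a (Itga1). RGS proteins shorten the signal that chemokine receptors and other G protein-coupled receptors send into the cell.

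Expression was read from poly-A RNA sequencing libraries of CD8 T cells enriched from the spleens of C57BL/6 mice, either wild type or Batf3-/- (ko). The Batf3 protein is a bZIP transcription factor that pairs with Jun proteins. In all groups the cells were activated in medium with 50 ng/ml IL-15, 1 µg/ml plate-bound anti-CD3e and 1 µg/ml anti-CD28, for 48 h or 72 h. Both genotypes at both times make 4 groups of 4 libraries each. The series text calls these technical replicates, and p-values here speak of the spread among such libraries, not among mice. The ko is described as a property of the mice and not of the cultured T cells alone, and the cells grew outside any tissue. The comparisons ask how expression differed between genotypes at each time, how it changed between the times in each genotype, and whether the genotype difference itself changed.

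Library totals ran from 29375818 to 39241169 counts, and levels are given as CPM, a gene's count divided by its library total and scaled up. A count of 0 allows up to 3 counts, or 0.0765 to 0.102 CPM, by counting error alone. In wild-type cells Batf3 averaged 80.7 ± 5.86 CPM at 48 h and 30.9 ± 2.65 CPM at 72 h (each SD, n = 4). Ko libraries held 2 to 7 Batf3 counts at 48 h and 0 to 11 at 72 h, so that all 16 libraries matched their genotype label. The 5 CD8 T cell markers were Cd3e, Cd3d, Cd8a, Cd8b1 and Trac. At 48 h they summed to 1120 to 1149 CPM in wild-type and 1130 to 1199 CPM in ko libraries. At 72 h the sums were 1548 to 1594 CPM in wild-type and 1624 to 1659 CPM in ko libraries, which did not overlap. Cd3d alone of the 5 passed the edgeR test described below. It was higher in ko cells by 0.25 on the log2 scale (SE 0.07) at 48 h and 0.53 (SE 0.07) at 72 h. Cd4 and Foxp3 stayed under 1 CPM in every group's mean. Replicate 4 of the ko group at 48 h and replicate 4 of the wild-type group at 72 h stood farther from their groups than the other libraries did (root mean square log2 distances of 0.236 and 0.218, against 0.113 to 0.167). Ko replicate 4 had the highest value of its group in 5 of the 9 genes (Cxcr3, Itgae, Itga1, Itga4 and Cd69) and the lowest in Ccr2. Wild-type replicate 4 had the highest value in Cxcr6, Ccr2, Itga1, Cd69 and Rgs1 and the lowest in Cxcr3 and Itga4. Results that rest on them are given below with and without them.

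At 72 h, 6 of the 9 genes were higher in ko than in wild-type cells, and 0 were lower. The 6 were Cxcr6, Ccr2, Rgs2, Rgs1, Itgae and Cd69, with fold changes from 2.10 down to 1.33. Calls were made with edgeR's quasi-likelihood test at an adjusted p below 0.05, by which 16.9% of all tested genes were higher and 19.5% lower in the ko group. The median log2 fold change of the 9 genes was 0.68, against -0.02 over all tested genes. The 9 genes and the lists used below were chosen with earlier results of these data known. Counts and medians set beside those of all genes, here and below, are therefore description and no test of the set. Lower members also numbered 0 at an unadjusted p under 0.05, in DESeq2 and in limma-voom. At 48 h a single member, Ccr2, was higher and 0 were lower, where 4.41% of tested genes were higher and 2.66% lower. There the median of the 9 was 0.06, against 0.01 over all tested genes; 2 members (Itga1 and Itga4) were lower at an unadjusted p under 0.05, and 0 in limma-voom and in DESeq2, which gave no adjusted p for Itga1. Fold changes come from a fit with TMM scaling between libraries and so differ somewhat from ratios of the CPM. In bulk RNA, fewer cells expressing a gene and less RNA per cell cannot be told apart.

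**Figure D1:**
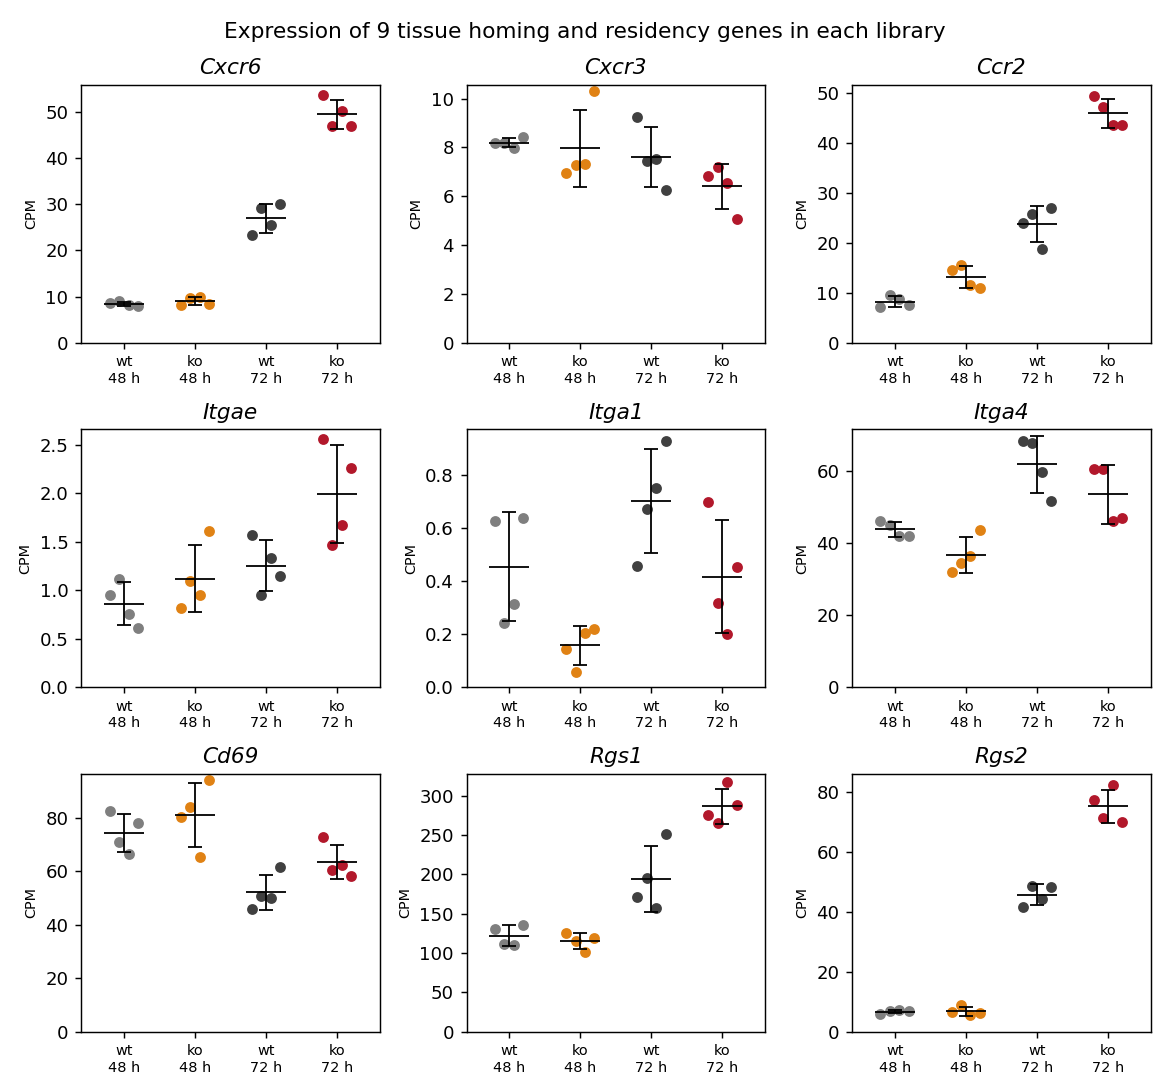
CPM of each of the 9 genes in every library, by genotype and culture time (points, libraries; horizontal line and bars, mean ± SD of 4 libraries; axes start at 0). Cxcr6, Ccr2, Rgs1 and Rgs2 have all 4 ko libraries above all 4 wild-type libraries at 72 h. The share of all tested genes with no such overlap is not given.

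Upstream sequence is shown for the genes that rose together most in ko cells and have an entry in the promoter table (Cxcr6, Ccr2 and Rgs2), with Cxcr3, a receptor whose genotype difference did not pass the test, for contrast. Each line gives the 250 bases before the transcription start, from RefSeq on GRCm38.p6, 5′ to 3′ on the gene's own strand. Capitals mark the RUNX core motif (TGTGGT, either strand). The windows are chr9:123806227-123806476 on the plus strand for Cxcr6, chr9:124101933-124102182 on the plus strand for Ccr2, chr1:144004150-144004399 on the minus strand for Rgs2 and chrX:101734148-101734397 on the minus strand for Cxcr3. Each of these RefSeq starts lies inside the gene as GENCODE draws it. Most of the Ccr2 window and a large part of the Cxcr3 window, with its RUNX match, thus fall within the gene. The Cxcr6 and Rgs2 windows reach into theirs by a few bases only.
Cxcr6: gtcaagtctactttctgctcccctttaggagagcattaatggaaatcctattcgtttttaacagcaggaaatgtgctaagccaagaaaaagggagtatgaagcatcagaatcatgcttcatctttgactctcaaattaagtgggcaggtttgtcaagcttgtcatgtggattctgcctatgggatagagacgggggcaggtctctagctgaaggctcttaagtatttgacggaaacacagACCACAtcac
Ccr2: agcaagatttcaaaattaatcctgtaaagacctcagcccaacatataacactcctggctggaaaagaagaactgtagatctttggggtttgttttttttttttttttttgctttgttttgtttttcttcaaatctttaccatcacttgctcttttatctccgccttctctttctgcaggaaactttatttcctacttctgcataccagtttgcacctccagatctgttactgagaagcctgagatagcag
Rgs2: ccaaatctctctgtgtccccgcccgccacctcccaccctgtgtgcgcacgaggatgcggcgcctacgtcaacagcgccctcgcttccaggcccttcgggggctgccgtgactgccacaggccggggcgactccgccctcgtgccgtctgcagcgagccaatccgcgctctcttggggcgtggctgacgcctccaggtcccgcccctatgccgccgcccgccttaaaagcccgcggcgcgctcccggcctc
Cxcr3: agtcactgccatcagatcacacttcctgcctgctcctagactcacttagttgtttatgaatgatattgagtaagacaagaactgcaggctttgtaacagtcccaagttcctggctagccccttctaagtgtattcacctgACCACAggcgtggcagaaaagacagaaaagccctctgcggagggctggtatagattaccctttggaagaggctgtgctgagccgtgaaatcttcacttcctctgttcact

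Of the 9 genes, 6 matched an entry (Itga1 and Itga4 are the others; Itgae, Cd69 and Rgs1 were not matched). An AP-1 motif (TGANTCA, both strands), the kind that Batf3 and Jun pairs bind, occurred in 0 of the 6 windows and in 6.75% of 32851 promoter windows of the same length. The CRE motif (TGACGTCA, both strands) occurred in 0 of 6 and in 1.55% of all. The RUNX core, bound by Runx factors such as the CD8 lineage factor Runx3 and searched for after the expression values were seen, occurred in 3 of 6 and in 14% of all. Its matches lay 10 bases from the start of Cxcr6, 60 from that of Itga4 and 110 from that of Cxcr3. These letters occur both in a gene that differed most between genotypes and in genes whose difference did not pass the test. The windows differ in base composition: G and C made up 72.4% of the Rgs2 window, 43.6% of that of Cxcr6 and 37.2% of that of Ccr2.

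Cxcr6 (ENSMUSG00000048521; GRCm38 chromosome 9, 123806475 to 123811760, plus strand) encodes the receptor for CXCL16 and is abundant on CD8 T cells in tissues such as liver and lung. At 72 h the wild-type libraries had 23.3, 29.1, 25.5 and 30.0 CPM and the ko libraries 53.5, 47.0, 50.2 and 47.0 CPM. Every ko library thus lay well above every wild-type library. Ko cells were higher by 1.00 on the log2 scale (SE 0.09, fold 2.00, adjusted p = 1.90e-08, edgeR quasi-likelihood test). Earlier, at 48 h, the wild-type values of 8.65, 9.01, 8.20 and 7.93 CPM overlapped the ko values of 8.19, 9.70, 10 and 8.46 CPM. That difference was 0.15 (95% interval -0.06 to 0.35, adjusted p = 0.425, edgeR quasi-likelihood test). Cxcr6 lies inside Fyco1 on the opposite strand; the strand setting used for counting is not given in the sources used here. Fyco1 averaged 21.9 CPM in wild-type and 19.8 CPM in ko cells at 72 h, with a log2 fold change of -0.02 (SE 0.09).

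Ccr2 (ENSMUSG00000049103; chromosome 9, 124101950 to 124113557, plus strand) encodes the receptor for CCL2 and related ligands that are made in inflamed tissue. It was the member that differed at both times. At 48 h wild-type libraries had 7.10, 9.49, 8.67 and 7.54 CPM and ko libraries 14.5, 15.5, 11.6 and 10.9 CPM. All 4 ko values lay above all 4 wild-type values, and the log2 fold change was 0.72 (SE 0.13, fold 1.65, adjusted p = 0.00172, edgeR quasi-likelihood test). By 72 h the levels were 23.9, 25.7, 18.7 and 27.0 CPM in wild-type and 49.5, 47.2, 43.5 and 43.6 CPM in ko libraries. Again the groups did not overlap, and the log2 fold change was 1.07 (SE 0.12, fold 2.10, adjusted p = 9.43e-07, edgeR quasi-likelihood test).

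Monocytes also express Ccr2, so a list of 7 monocyte and macrophage markers was read beside it. Csf1r, Adgre1, Cd14, Lyz2, Itgam and Fcgr1 each averaged under 1 CPM in every group, and Adgre1 had 0 counts in all 16 libraries. The summed level of the 7 was 1.30 to 1.99 CPM in wild-type and 1.02 to 2.34 CPM in ko libraries at 48 h. At 72 h it was 5.86 to 7.22 CPM in wild-type and 8.18 to 12.0 CPM in ko libraries. Nearly all of that was Cd68, a lysosomal membrane protein, which rose in ko cells by 0.70 (SE 0.18) at 72 h and averaged 9.37 CPM there. The part of Cd68-expressing cells in the Ccr2 result was not tested.

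Cxcr6 and Ccr2 lie 295 kb apart in a cluster of chemokine receptor genes on chromosome 9. Their surroundings were read from 300 kb before Cxcr6 to 300 kb after Ccr2, a window chosen after the values were seen. Within it edgeR also called Lztfl1 (0.35, SE 0.10) and the chemokine receptor gene Ccr1 (0.87, SE 0.31) higher in ko cells at 72 h. The flanking genes Limd1 (-0.08, SE 0.06) and Sacm1l (0.03, SE 0.07) did not pass the test at 72 h. Chemokine receptor genes of the cluster are related in sequence, and reads that match several of them are uncertain.

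Cxcr3 (ENSMUSG00000050232; chromosome X, 101731535 to 101734269, minus strand) encodes the receptor for the interferon-induced chemokines CXCL9 and CXCL10. Its genotype difference passed the test at neither time. At 72 h wild-type libraries had 9.24, 7.45, 7.52 and 6.27 CPM and ko libraries 6.84, 7.18, 6.56 and 5.09 CPM. The ranges overlapped, and the log2 fold change was -0.12 (95% interval -0.39 to 0.15, adjusted p = 0.516, edgeR quasi-likelihood test). Earlier, at 48 h, wild-type libraries had 8.19, 8.19, 7.96 and 8.44 CPM and ko libraries 6.94, 7.30, 7.32 and 10.3 CPM, a log2 fold change of -0.01 (95% interval -0.28 to 0.25). Ko replicate 4 alone lay above the wild-type values there.

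Other chemokine receptors moved in both directions. Of 17 listed, 11 were tested. Ko cells had 3 of these higher and 2 lower at 72 h, against 16.9% and 19.5% of all tested genes. Among the higher was Cxcr4 (0.33, SE 0.12), the receptor for CXCL12, and the lower ones were Ccr8 (-2.77, SE 0.16) and Ccr4 (-1.26, SE 0.10), a pair of receptors linked to skin homing. Ccr8 had 8.87 CPM in wild-type and 1.19 CPM in ko cells at 72 h, and was lower at 48 h too (-0.84, SE 0.13). Ccr7, the lymph node homing receptor, had a 72 h log2 fold change of -0.19 (SE 0.08, adjusted p = 0.0728, edgeR quasi-likelihood test). Of 12 listed ligands of the members, 4 (Cxcl10, Cxcl16, Cdh1 and Fn1) were tested, and 0 were called higher and 0 lower at either time in edgeR. At an unadjusted p under 0.05 the count at 72 h was 1 higher and 0 lower, as it was in DESeq2 and in limma-voom, and at 48 h it was 0 in all of these. At 72 h none of the 4 averaged over 1.28 CPM in either genotype.

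Among the integrin chains, Itgae alone was called different between genotypes, at 72 h. Itgae (ENSMUSG00000005947; chromosome 11, 73090583 to 73147446, plus strand) encodes CD103, which pairs with the beta 7 chain to bind E-cadherin on epithelium. Its level was low: 1.57, 0.953, 1.33 and 1.15 CPM in wild-type and 2.56, 1.47, 1.67 and 2.26 CPM in ko libraries at 72 h, from 34 to 88 counts. A single wild-type value reached into the ko range. Its log2 fold change was 0.80 (SE 0.25, fold 1.75, adjusted p = 0.0153, edgeR quasi-likelihood test). The call was lost without wild-type replicate 2 (adjusted p = 0.0568) or without ko replicate 1 (adjusted p = 0.0668). At 48 h the estimate was 0.41 (95% interval -0.15 to 0.96, adjusted p = 0.396, edgeR quasi-likelihood test), with overlapping ranges of 0.612 to 1.12 CPM in wild-type and 0.819 to 1.61 CPM in ko libraries. Haspin, a protein kinase gene of the opposite strand that overlaps Itgae, had far more reads, 22.8 CPM in wild-type and 15.6 CPM in ko cells at 72 h. Without strand information reads of such a pair cannot be told apart.

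Itga1 (ENSMUSG00000042284; chromosome 13, 114953096 to 115101964, minus strand) encodes CD49a, which pairs with beta 1 to bind collagen. It was the rarest member, with 23, 8, 12 and 25 counts in wild-type and 5, 2, 8 and 7 counts in ko libraries at 48 h. In CPM these were 0.626, 0.243, 0.314 and 0.637 against 0.146, 0.0577, 0.206 and 0.221, so the groups did not overlap and ko was the lower. The log2 fold change of -1.48 (SE 0.49, 95% interval -2.49 to -0.48) did not pass the adjusted threshold (adjusted p = 0.0644, edgeR quasi-likelihood test). It passed without ko replicate 4, at -1.65 (adjusted p = 0.0493, edgeR). At 72 h wild-type libraries had 0.457, 0.672, 0.749 and 0.928 CPM and ko libraries 0.698, 0.317, 0.200 and 0.452 CPM. These overlapped, with a log2 fold change of -0.61 (95% interval -1.48 to 0.25, adjusted p = 0.270, edgeR quasi-likelihood test). Pelo and Gm49395 overlap Itga1 on the same strand, and Gm10734 on the opposite one, so that reads in shared stretches are uncertain.

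Itga4 (ENSMUSG00000027009; chromosome 2, 79255426 to 79333123, plus strand) encodes CD49d, which pairs with beta 1 or beta 7 to bind VCAM-1 or MAdCAM-1 on vessel walls. It was far more abundant, with 68.4, 67.8, 59.8 and 51.8 CPM in wild-type and 60.6, 60.8, 46.1 and 47.0 CPM in ko libraries at 72 h. The groups overlapped and the log2 fold change was -0.08 (95% interval -0.28 to 0.12, adjusted p = 0.549, edgeR quasi-likelihood test); it was 0.08 with exon length offsets, which take out the trend of each library's counts with the length of a gene's exons. At 48 h wild-type libraries had 46.1, 45.2, 42.1 and 42.1 CPM and ko libraries 32.1, 34.5, 36.6 and 43.8 CPM. Only ko replicate 4 reached the wild-type range. The log2 fold change was -0.22 (95% interval -0.43 to -0.02, adjusted p = 0.169, edgeR quasi-likelihood test), and -0.30 without that library, where it passed (adjusted p = 0.0442, edgeR).

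Fold changes of all genes fell with exon length (Spearman correlation -0.398 at 48 h and -0.348 at 72 h across 9284 genes, which are not independent replicates). Itga1 and Itga4 are at the long end, at percentiles 99.1 and 96.7 of exon length, while Cxcr6 and Cxcr3, at 16.4 and 14.1, are short. With exon length offsets 6 members were again higher at 72 h and 0 lower, and Ccr2 was again the single call at 48 h. Itga1 then stood at -1.36 (SE 0.49) at 48 h and Itga4 at -0.11 (SE 0.07), while Cxcr6 had 0.92 (SE 0.08) at 72 h. Leaving out both libraries that stand apart also gave 6 members higher and 0 lower at 72 h.

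The beta chains that pair with these alpha chains were abundant. Itgb7 averaged 166 ± 18.9 CPM (SD, n = 4) in wild-type and 181 ± 21 CPM (SD, n = 4) in ko cells at 72 h, a log2 fold change of 0.25 (SE 0.09, adjusted p = 0.0267, edgeR quasi-likelihood test) with overlapping libraries. Itgb1 had log2 fold changes of -0.06 (SE 0.07) at 48 h and -0.08 (SE 0.07) at 72 h, neither past the test. Of 15 other integrin chains, 13 were tested. At 72 h ko cells had 3 of these higher and 3 lower, against 16.9% and 19.5% of all tested genes. Itga7, which pairs with beta 1 to bind laminin, rose by 1.83 (SE 0.15), from 9.81 to 32.0 CPM, and by 1.27 (SE 0.21) at 48 h. Itga2, a collagen receptor chain like Itga1, rose by 0.70 (SE 0.21) from 3.05 to 4.55 CPM at 72 h. Itga3 (-0.33, SE 0.11), Itga6 (-0.31, SE 0.08) and Itgal (-0.24, SE 0.08), the alpha chain of LFA-1, were lower at 72 h. At 48 h 1 of the 13 was higher, Itga7, and 2 were lower, Itga3 (-0.73, SE 0.14) and Itga6 (-0.30, SE 0.08). Over all tested genes, 4.41% were higher and 2.66% lower at 48 h. Of 13 genes of integrin activation and linkage, 1 was higher at 72 h, the small GTPase gene Rap1a (0.28), and 3 were lower, the Rap effector gene Rassf5 (-0.38), Rapgef1 (-0.23) and the adaptor Pxn (-0.18); at 48 h edgeR called 0 in either direction, with 2 higher and 1 lower at an unadjusted p under 0.05 and 0 in DESeq2 and limma-voom.

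Cd69, Rgs1 and Rgs2 were all higher in ko cells at 72 h, and none of the 3 was called at 48 h in edgeR, DESeq2 or limma-voom, nor at an unadjusted p under 0.05. Rgs2 (ENSMUSG00000026360; chromosome 1, 143999338 to 144004161, minus strand) encodes a GTPase-activating protein that acts mainly on Gq. At 72 h wild-type libraries had 41.6, 48.7, 44.3 and 48.4 CPM and ko libraries 77.1, 71.3, 82.1 and 70.0 CPM. With no overlap, the log2 fold change was 0.84 (SE 0.10, fold 1.79, adjusted p = 1.67e-06, edgeR quasi-likelihood test). The genotypes at 48 h were both at 5.58 to 9.06 CPM and overlapped, with a log2 fold change of 0.06 (95% interval -0.19 to 0.32).

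Rgs1 (ENSMUSG00000026358; chromosome 1, 144242296 to 144249242, minus strand) encodes a GTPase-activating protein that dampens chemokine receptor signals and is a frequent transcript of tissue-resident T cells. It had 171, 196, 157 and 252 CPM in wild-type and 276, 265, 317 and 288 CPM in ko libraries at 72 h. The groups did not overlap, although wild-type replicate 4 came near the lowest ko library. The log2 fold change was 0.68 (SE 0.12, fold 1.61, adjusted p = 2.72e-04, edgeR quasi-likelihood test). The 48 h values were 131, 111, 110 and 136 CPM in wild-type and 125, 116, 101 and 119 CPM in ko libraries, which overlapped; the estimate was -0.05 (95% interval -0.31 to 0.21). Rgs1 and Rgs2 lie on the chromosome that carries Batf3, at 46.9 and 47.1 Mb from it. Any sequence difference inherited with the ko allele was not tested.

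Cd69 (ENSMUSG00000030156; chromosome 6, 129267325 to 129275436, minus strand) is also an early activation marker of T cells. At 72 h it had 46.1, 50.6, 50.2 and 61.5 CPM in wild-type and 72.7, 60.5, 62.3 and 58.3 CPM in ko libraries. Wild-type replicate 4, the library that stands apart, reached into the ko range, and the other 3 lay below all ko libraries. The log2 fold change was 0.41 (SE 0.10, fold 1.33, adjusted p = 0.00347, edgeR quasi-likelihood test). The 48 h value, with 66.6 to 82.4 CPM in wild-type and 65.4 to 94.0 CPM in ko libraries, was 0.15 (95% interval -0.06 to 0.36).

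**Figure D2:**
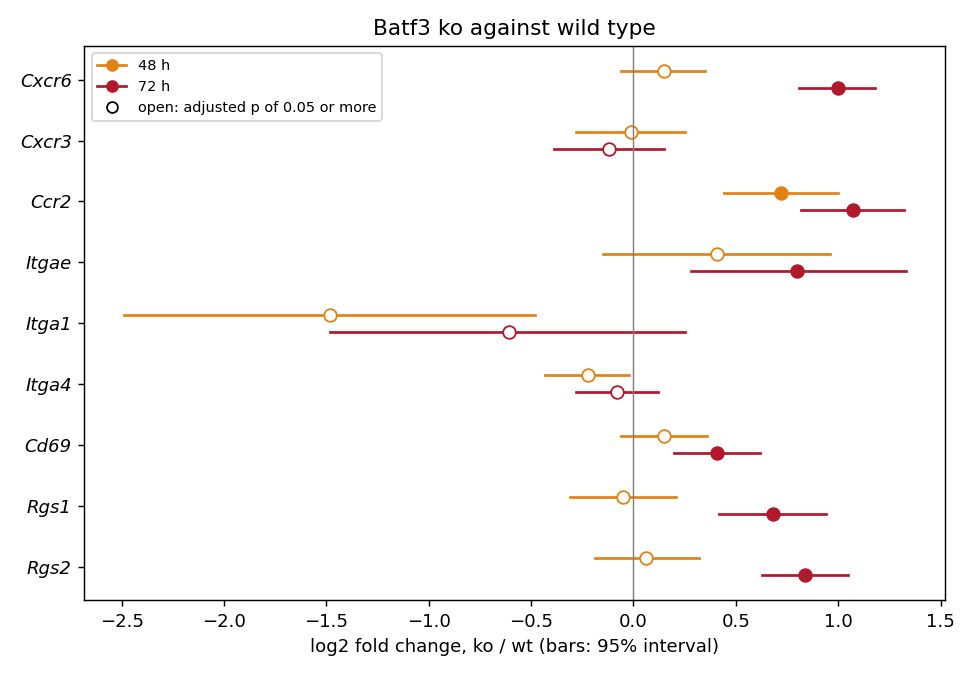
Log2 fold change of ko against wild type for the 9 genes at 48 h and 72 h (points, edgeR estimates; bars, 95% interval; filled, adjusted p below 0.05). Ccr2 is the filled point at 48 h, and Cxcr6, Ccr2, Itgae, Cd69, Rgs1 and Rgs2 are filled and above 0 at 72 h.

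Natural killer cells and related innate lymphocytes share several of these transcripts. Of 3 natural killer markers, Ncr1 and Klra8 averaged under 1 CPM in every group. Klrb1c rose in ko cells by 1.21 (SE 0.19) at 48 h and 0.79 (SE 0.15) at 72 h, where it averaged 4.37 CPM in wild-type and 6.92 CPM in ko cells. The 3 together summed to 0.865 to 1.36 CPM in wild-type and 1.88 to 2.66 CPM in ko libraries at 48 h, and to 4.05 to 5.88 CPM and 6.76 to 8.29 CPM at 72 h. Eomes, also planned as a natural killer marker, was left out of this sum and listed with the transcription factors below. It was far more abundant, at 49.6 CPM in wild-type and 49.0 CPM in ko cells at 48 h. At 72 h it went the other way from Klrb1c and was lower in ko cells. Of the B cell markers, Ms4a1 and Cd79a averaged under 1 CPM in every group, while Ighm was higher in ko cells by 0.28 (SE 0.06) and 0.43 (SE 0.06) and averaged 255 CPM in wild-type and 315 CPM in ko cells at 72 h. Their part in the results was not tested.

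Further genes tied to retention and exit were read from lists. Of 12 tested genes of sphingosine phosphate signalling and egress, 3 were higher in ko cells at 72 h and 0 lower. Over all tested genes, 16.9% were higher and 19.5% lower. The counts of this list were the same in DESeq2, in limma-voom and at an unadjusted p under 0.05. The higher ones were Klf2 (0.77, SE 0.15), a factor that switches on exit receptors, Sgpl1 (0.43, SE 0.06), the sphingosine phosphate lyase, and the receptor S1pr4 (0.38, SE 0.07). S1pr1, the exit receptor that CD69 counters, had 18.7 ± 2.58 CPM (SD, n = 4) in wild-type and 19.0 ± 2.54 CPM (SD, n = 4) in ko cells at 72 h, a log2 fold change of 0.15 (SE 0.11) that did not pass. At 48 h S1pr4 was higher (0.33, SE 0.07). Of 9 tested other RGS genes, 3 were higher and 2 lower at 72 h, against 16.9% and 19.5% of all tested genes. Among the higher were Rgs11 (0.54, SE 0.21) and Rgs10 (0.28, SE 0.07), and the lower were Rgs12 (-0.74, SE 0.17) and Rgs16 (-0.34, SE 0.09). DESeq2 called 2 higher. At 48 h Rgs14 (0.30, SE 0.07) was higher.

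A list of transcription factors known to promote or to restrain residency had 15 genes, all tested. At 72 h 1 was higher and 7 lower in ko cells, against 16.9% and 19.5% of all tested genes. At 48 h 2 were higher and 3 lower, against 4.41% and 2.66%. Prdm1, which encodes Blimp-1, was higher at both times, by 0.92 (SE 0.11) at 48 h and 0.28 (SE 0.10) at 72 h. Zfp683, which encodes its relative Hobit, was higher at 48 h (0.85, SE 0.22), at 1.69 against 0.959 CPM, and had 0.17 (SE 0.17) at 72 h, not past the test. The lower ones at 72 h with the largest changes were the nuclear receptor genes Nr4a3 (-1.38, SE 0.07), Nr4a2 (-1.07, SE 0.10) and Nr4a1 (-0.71, SE 0.07), which answer to T cell receptor signals, and Notch2 (-0.57, SE 0.12). The other 3 were Rbpj (-0.49, SE 0.05), the DNA-binding partner of Notch, and Eomes (-0.46, SE 0.07) and Tcf7 (-0.37, SE 0.09), a pair of factors that are usually low in resident cells. Lower at 48 h were Nr4a3 (-0.56, SE 0.07), Notch2 (-0.45, SE 0.11) and Rbpj (-0.28, SE 0.05). Runx3 averaged 180 CPM in wild-type and 170 CPM in ko cells at 72 h and did not pass the test (0.05, SE 0.09).

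A list of genes usually higher in tissue-resident than in circulating memory cells had 23 tested members. At 72 h ko cells had 11 of them higher and 2 lower, against 16.9% and 19.5% of all tested genes. The largest rises that the rule names were the receptors Gpr55 (0.87, SE 0.10) and Cysltr2 (0.87, SE 0.15), with Cd244a (0.64, SE 0.23) and Vps37b (0.60, SE 0.07). Xcl1, a chemokine that attracts dendritic cells, was lower by -1.19 (SE 0.12). A list of genes usually lower in resident cells had 22 tested members, of which 10 were higher and 6 lower. Among the higher were Kcnj8 (1.17, SE 0.19), Klre1 (1.03, SE 0.12), Klhl6 (0.73, SE 0.09) and Ly6c1 (0.55, SE 0.11). Among the lower were Tlr1 (-0.47, SE 0.10), Dock5 (-0.37, SE 0.10), Sidt1 (-0.34, SE 0.09) and Usp33 (-0.27, SE 0.08). Both lists thus had more genes higher than lower. The lists had medians of 0.25 and 0.09, against -0.02 over all tested genes.

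Transforming growth factor beta is the cytokine that induces Itgae in tissues. Of 15 tested genes of its pathway, ko cells had 3 higher and 5 lower at 72 h, against 16.9% and 19.5% of all tested genes. Higher were the ligand gene Tgfb3 (1.07, SE 0.14), and Lrrc32 (0.63, SE 0.10) and Ltbp3 (0.45, SE 0.17), which hold the latent cytokine. Lower were the signal transducers Smad3 (-0.64, SE 0.09) and Smad2 (-0.32, SE 0.06), the ligand gene Tgfb1 (-0.46, SE 0.08), the repressor Ski (-0.38, SE 0.10) and Tgfbr2, a receptor chain (-0.30, SE 0.07).

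Between 48 h and 72 h most of the 9 genes rose in both genotypes. These comparisons use the same libraries as those between genotypes, so their values are given side by side and not as further support. In wild-type cells 5 genes were higher at 72 h and 1 lower, where 33.6% of tested genes rose and 29.9% fell. In ko cells 7 were higher and 1 lower, where 34.4% were higher and 33.6% lower. Rgs2 rose most on the log2 scale, by 2.73 (SE 0.12, fold 6.65) in wild-type and 3.51 (SE 0.12, fold 11.4) in ko cells. Cxcr6 rose by 1.65 (SE 0.10, fold 3.14) and 2.50 (SE 0.10, fold 5.67), Ccr2 by 1.52 (SE 0.13) and 1.87 (SE 0.13), Rgs1 by 0.65 (SE 0.12) and 1.38 (SE 0.13), and Itga4 by 0.47 (SE 0.10) and 0.61 (SE 0.10). Itgae and Itga1 passed in ko cells, at 0.91 (SE 0.25) and 1.46 (SE 0.50), and in wild-type cells had 0.51 (SE 0.27, adjusted p = 0.100, edgeR) and 0.59 (SE 0.41, adjusted p = 0.215, edgeR). The Itga1 call in ko cells was lost without ko 72 h replicate 1 (adjusted p = 0.0739).

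Cd69 went the other way. It fell by 0.54 on the log2 scale (SE 0.10) in wild-type cells, where no library of 72 h reached the range of 48 h, and by 0.28 (SE 0.10, adjusted p = 0.0172, edgeR quasi-likelihood test) in ko cells, where the libraries overlapped. The ko call was lost without replicate 4 of the 48 h libraries (adjusted p = 0.0645), without replicate 2 or 4 of the 72 h libraries (adjusted p = 0.0501 and 0.0571), and with exon length offsets (adjusted p = 0.108). Cxcr3 had -0.13 (95% interval -0.40 to 0.13) in wild-type and -0.24 (95% interval -0.51 to 0.03) in ko cells, neither past the test.

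**Figure D3:**
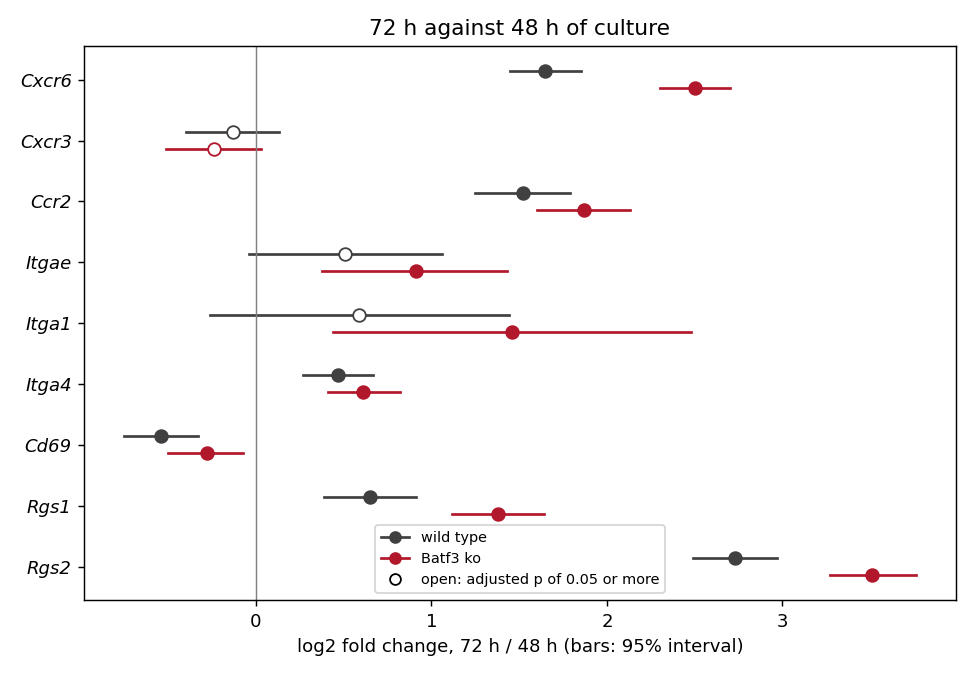
Log2 fold change of 72 h against 48 h for the 9 genes in wild-type and ko cells (points, edgeR estimates; bars, 95% interval; filled, adjusted p below 0.05). Rgs2, Cxcr6, Ccr2, Rgs1 and Itga4 are filled and above 0 in both genotypes, and Cd69 is filled and below 0 in both.

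Whether the genotype difference itself changed between the times was tested as an interaction. It was positive and called for 3 of the 9 genes and negative for 0, where 2.08% of tested genes were called positive and 3.53% negative. The count of negative members was also 0 at an unadjusted p under 0.05, in DESeq2 and in limma-voom. The 3 were Cxcr6 (0.85, SE 0.13, adjusted p = 4.82e-04), Rgs2 (0.78, SE 0.16, adjusted p = 0.00548) and Rgs1 (0.73, SE 0.18, adjusted p = 0.0200), all from edgeR's quasi-likelihood test. For Rgs1 the call was lost without ko 48 h replicate 4 (adjusted p = 0.0514). For Ccr2, which already differed at 48 h, the interaction was 0.35 (95% interval -0.03 to 0.72, adjusted p = 0.277, edgeR quasi-likelihood test). Cd69 had 0.25 (SE 0.14, adjusted p = 0.330, edgeR quasi-likelihood test), and 0.42 (adjusted p = 0.0432) without both libraries that stand apart.

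Levels of different genes were compared as CPM per kb of exon. Rgs1 was the highest of the 9 in every group, from 16.6 ± 1.49 CPM per kb (SD, n = 4) in ko cells at 48 h to 41.2 ± 3.26 (SD, n = 4) in ko cells at 72 h. At 48 h Cd69 came next, with 11.4 ± 1.09 CPM per kb (SD, n = 4) in wild-type and 12.4 ± 1.82 (SD, n = 4) in ko cells. Cxcr3 and Cxcr6 followed at 4.73 ± 0.111 and 4.37 ± 0.248 CPM per kb (SD, n = 4) in wild-type cells and overlapped each other in both genotypes. Itga4, Rgs2 and Ccr2 came after them at 48 h, the latter pair overlapping in ko and not in wild-type cells.

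By 72 h Cxcr6 and Rgs2 had passed Cd69 in both genotypes. Cxcr6 reached 14 ± 1.62 CPM per kb (SD, n = 4) in wild-type and 25.6 ± 1.60 (SD, n = 4) in ko cells, and Rgs2 12.6 ± 0.947 and 20.7 ± 1.54 (SD, n = 4). These neighbours overlapped in wild-type cells and did not in ko cells. Ccr2 was below Itga4 and Cxcr3 in wild-type cells at 72 h, with 3.52 ± 0.542 CPM per kb (SD, n = 4), and above both in ko cells, with 6.80 ± 0.434 (SD, n = 4). In wild-type cells these neighbours overlapped, and in ko cells Ccr2 stood clear of Itga4. Itgae and Itga1 were the lowest members in every group, at 0.188 to 0.434 and 0.00848 to 0.0377 CPM per kb in the group means.

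**Figure D4:**
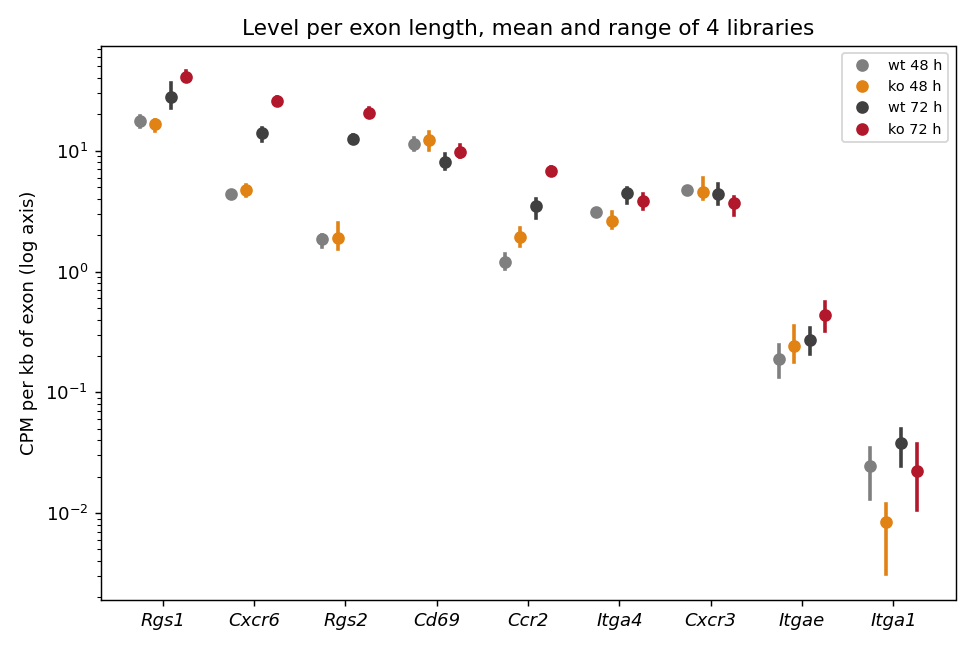
Level of each gene in CPM per kb of exon, on a log axis (points, mean of 4 libraries; bars, range of the 4; colours, genotype and time). Rgs1 is at the top in every group and Itga1 at the bottom, and Cxcr6 and Rgs2 move above Cd69 at 72 h.

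The genes whose pattern was most like each member were found by Pearson correlation of log2(CPM + 1) over the 16 libraries, among 9278 genes of at least middling abundance. These libraries share the 4 group means, so the values describe likeness only. For Rgs2, Usp3 had r = 0.996. Cxcr6 was most like Fxyd5 (0.992), at 205, 215, 461 and 653 CPM in wild type and ko at 48 h and then at 72 h, and Igbp1 (0.991). Ccr2 was most like Zfp52 (0.991) and the tetraspanin gene Cd53 (0.985), which had 481, 635, 849 and 1216 CPM in the same order. For Rgs1 they were Rps3a1 (0.979) and Cept1 (0.977), and for Itga4 Phf3 (0.971) and Elk4 (0.966). The other members had lower values, with Epg5 (0.937) for Cxcr3, Creg1 (0.913) for Cd69, Ptprv (0.900) for Itgae and Smarcal1 (0.847) for Itga1.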

How the data were processed

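Poly-A RNA of 16 libraries was measured, 4 in each of 4 groups taken from the labels. The authors deposited a table of raw, whole-number read counts for 55335 gene identifiers; every column of counts matched a sample. Per the labels' protocols, stranded libraries were made from 100 ng of total RNA. Per the submitters' processing notes, reads on GRCm38 were processed with bcl2fastq 2.2.0, STAR 2.7 and featureCounts. The sources used here do not give the strand setting, annotation release or treatment of multi-mapped reads, so overlapping and antisense genes are uncertain.

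CPM were counts divided by the column sum. Positions and exon lengths came from GENCODE M21 for GRCm38, in which 55154 identifiers were found, and promoters from RefSeq (GRCm38.p6). All libraries entered a fit in edgeR 4.0.16 (R 4.3.3) with TMM scaling, a minimum count of 10 in filterByExpr and a robust, two-sided quasi-likelihood F test, which was tested on simulated data. P-values were adjusted over 15197 genes by the Benjamini-Hochberg method with a threshold of 0.05. An SE is the size of the log2 fold change over the root of its F statistic.

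The members and gene lists were chosen with earlier results of these data known. All 9 members are named, and from each list up to 4 genes past the threshold in each direction and genotype comparison, largest change first, if the average log2 CPM was 1 or more; Batf3 is added, and the 2 genes most like each member among those whose average log2 CPM reached 3. Genes named outside that rule (Itgb1, Ccr1, Ccr7, S1pr1, Runx3, Tgfbr2, Eomes, Tcf7, Rbpj at 72 h, the ligands and genes overlapping or flanking a member) were chosen after their values were seen.

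The alternatives changed the test (DESeq2 1.42.0, or limma-voom in limma 3.58.1), the scaling (median-ratio, library-size), the low-count filter, the libraries fitted (the compared groups alone, each library left out, both libraries that stand apart left out), or added a replicate block or exon length offsets. Replicates of a group differed by more than sampling noise in every pair. Neither the labels nor the columns name a batch. A few genes that the rule selects are not reported here.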

Additional observations from a re-analysis of the deposited data

Results flagged for a closer look

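Chance flags about 1 in 20 groups in a check for a sample far from the others, and 36 groups (9 genes in 4 groups) were checked. A single value stood apart: Cxcr3 had 10.3 CPM in replicate 4 of the ko group at 48 h, against 6.94 to 7.32 CPM in the other 3 libraries. That library also stood apart over all genes.

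The genotype difference of 3 genes was larger at 72 h than at 48 h by the interaction test in edgeR. On the log2 scale the interaction was 0.85 for Cxcr6, 0.78 for Rgs2 and 0.73 for Rgs1. In each of the 3 genes all 4 ko libraries lay above all 4 wild-type libraries at 72 h and the genotypes overlapped at 48 h. These ranges restate the values that the test used and are no further support. The share of all tested genes with no such overlap is not given here.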

How the results depend on the processing

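Of 1152 recomputed fold changes of single members, 1130 kept their direction and side of the threshold, 8 lost a call, 6 gained one and 8, none of them called, changed sign. Cxcr6, Ccr2, Rgs1, Rgs2 and Cd69 kept their 72 h call under every alternative run. Leaving out both libraries that stand apart gave 2 members lower at 48 h, Itga1 (-1.65, adjusted p = 0.0385) and Itga4 (-0.30, adjusted p = 0.0181), and leaving out each library in turn gave 0 to 2. Members lower at 72 h against 48 h in ko cells numbered 0 with exon length offsets, and 0 to 1 leaving out libraries. Offsets also moved Itgae past the threshold between the times in wild-type cells (adjusted p = 0.0478) and changed the sign of Rgs1 at 48 h (0.01) and Itga4 at 72 h (0.08). Leaving out libraries took Rgs1 at 48 h from -0.10 to 0.01, Cxcr3 at 48 h from -0.14 to 0.03, Rgs2 at 48 h from -0.12 to 0.16 and the Cxcr3 interaction from -0.18 to 0.02. Over all genes, 670 were higher and 405 lower at 48 h; these became 302 to 1059 and 171 to 896 leaving out each library, 1379 and 1173 leaving out both, and 819 lower in DESeq2. At 72 h the 2565 higher and 2961 lower became 1464 and 4779 with library-size scaling, which moved the median log2 fold change by -0.13. For the interaction, 316 positive and 537 negative became 183 and 1231 with that scaling, 563 positive in DESeq2, and 158 to 407 and 233 to 649 leaving out libraries. The share of calls that were higher went from 62.3% to 48.3% at 48 h, 46.4% to 23.5% at 72 h and 37.0% to 12.9% for the interaction with library-size scaling. The causes were not tested. Replicate numbers did not pair the samples (correlations of deviations from -0.25 to 0.271); with the replicate block 6 members were higher at 72 h and 1 at 48 h, no member's call changed, and 572 genes were higher and 346 lower at 48 h. CPM on TMM-scaled totals moved by at most 5.59%, all 36 group means within 1 SD. No value was had for Itga1 with a filter of 1 CPM in 4 libraries, in DESeq2 at 48 h and for the interaction, or in fits of only the compared groups where it was filtered out, and none for any interaction in those fits. Depth limits Itga1, read from 2 to 29 counts a library, and Itgae, from 24 to 88.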
